A study of Rattus norvegicus with 6 samples.

Results

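TRAF adaptors, cIAP ubiquitin ligases and the ubiquitin editor A20 pass on or damp the signal from TNF receptors towards NF-κB. The genes of 10 such proteins and their partners were followed in crushed and intact sciatic nerves of rats. The 10 genes were Birc2, Birc3, Traf1, Traf2, Traf3, Traf6, Tnfaip3, Tnip1, Ripk1 and Cflar. They are 10 of the 30957 genes of the deposited table, found by gene name, and each name matched 1 row. The list was chosen by known role, with the crushed against intact values of these same nerves already known. The values of that contrast are therefore given as a description, without a p for any of the 10 genes. RNA-seq libraries came from 3 crushed nerves and 3 intact contralateral nerves of Sprague Dawley rats, which the methods describe as adult males with the proximal stump taken at 4 days postinjury (dpi). The sample labels call the groups injured and normal sciatic nerve tissue and give no time point, and no transgene or drug is named for either group. Library totals lay between 24844371 and 27139360 counts. All 10 genes passed the filter on low counts, with at least 123 counts in every nerve.

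When TNF binds its receptor, the kinase RIPK1 and the adaptor TRAF2 gather at the receptor, and TRAF2 brings in the ubiquitin ligases cIAP1 (Birc2) and cIAP2 (Birc3). The ubiquitin chains they build recruit the kinases that release NF-κB, while cFLIP (Cflar) keeps caspase-8 from starting cell death. A20 (Tnfaip3), with its partner ABIN1 (Tnip1), edits these chains and damps the signal, and Tnfaip3, Birc3 and Traf1 are known as target genes of NF-κB. In injured nerve, TNF and related cytokines are made by Schwann cells and macrophages.

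The libraries were checked against markers of the labelled tissue. Of 11 Schwann cell and myelin markers, 5 (Mbp, Mag, S100b, Sox10 and Cdh19) had at most 3 counts in every nerve, and the summed level of the 11 was 67.9 to 72.9 normalized CPM (counts scaled to library size) in intact and 65.5 to 65.8 in crushed nerves. Of 9 macrophage markers, Aif1, Adgre1, Cd163, Mrc1 and Ptprc had at most 3 counts, and the summed level of the 9 was 3.94 to 5.57 CPM in intact and 4.21 to 6.004 in crushed nerves. The fibroblast markers Col1a2, Dcn and Lum also had at most 3 counts, and the summed level of the 7 fibroblast markers was 185.6 to 199.4 CPM in intact and 162.8 to 181.6 in crushed nerves. The T and B cell, neutrophil, neuron and adipocyte lists each summed to at most 0.565 CPM in every nerve. The endothelial list (4.62 to 5.49 CPM intact, 3.77 to 5.08 crushed) and the mural and muscle list (9.06 to 10.7 intact, 7.69 to 9.32 crushed) overlapped between the groups. The proliferation gene Mki67 had between 37037 and 43837 counts per library. The 3 proliferation markers summed to 2685 to 2898 CPM in intact and 2546 to 2683 in crushed nerves. The summed Schwann cell, fibroblast and proliferation levels were somewhat lower in crushed nerves, but the fold changes of their genes lay on both sides of 0. Erbb3 (log2 fold change -0.59, adjusted p = 0.0222 with edgeR), Col1a1 (-0.69, adjusted p = 0.000662) and Col3a1 (-1.76, adjusted p = 0.0268, with 3 to 23 counts) passed as lower. Pmp22 (0.03), Pdgfra (0.19) and Ccnb1 (0.11) had values above 0 and did not pass. The defining transcripts of myelinating nerve were thus near 0 in libraries of both labels, so these markers do not bear out the labelled tissue. Crushed and intact nerve are used below as the names the labels give the libraries. The part of these markers in the results below was not tested. In bulk tissue, more cells of a type and more RNA per cell cannot be told apart.

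The promoters of the genes are described first. Whether a motif in them has a part in any difference between the groups was not tested. Promoters of RefSeq (GRCr8, 250 bases before to 50 after the start site) were found for 8 of the 10 genes, all but Birc3 and Traf6. The consensus NF-κB motif, 10 bases long and searched on both strands, had a match in 3 of the 8, those of Tnfaip3, Tnip1 and Traf3, against 4.18% of all 33469 promoters of the table. The sequences run 5′ to 3′ on the strand of the gene, with the matches in capitals. Tnfaip3 lies at chr1:15543930-15544229 on the minus strand, Tnip1 at chr10:39584912-39585211 on the minus strand and Traf3 at chr6:136026799-136027098 on the plus strand.
Tnfaip3: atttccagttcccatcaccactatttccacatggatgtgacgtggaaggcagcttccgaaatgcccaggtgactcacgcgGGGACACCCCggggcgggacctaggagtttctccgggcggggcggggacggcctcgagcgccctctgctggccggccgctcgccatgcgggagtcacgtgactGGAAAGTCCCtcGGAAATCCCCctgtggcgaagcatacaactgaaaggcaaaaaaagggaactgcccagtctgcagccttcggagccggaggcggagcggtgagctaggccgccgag
Tnip1: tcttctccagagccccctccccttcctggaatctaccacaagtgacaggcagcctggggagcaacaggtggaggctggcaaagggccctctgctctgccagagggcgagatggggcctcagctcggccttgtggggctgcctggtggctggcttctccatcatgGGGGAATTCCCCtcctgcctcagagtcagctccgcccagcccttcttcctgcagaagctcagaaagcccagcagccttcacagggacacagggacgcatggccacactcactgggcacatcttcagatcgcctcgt
Traf3: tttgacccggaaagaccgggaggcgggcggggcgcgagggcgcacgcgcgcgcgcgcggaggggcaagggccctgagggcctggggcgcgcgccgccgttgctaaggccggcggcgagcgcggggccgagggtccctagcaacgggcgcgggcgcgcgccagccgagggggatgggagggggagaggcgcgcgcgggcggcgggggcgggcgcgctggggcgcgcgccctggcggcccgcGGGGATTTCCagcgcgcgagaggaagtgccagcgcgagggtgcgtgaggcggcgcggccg
In Tnfaip3, 3 separate matches began at positions -170, -67 and -55 from the start site, the last 2 of them on the strand opposite to the gene. In Tnip1, matches at 3 neighbouring places overlapped within 1 run of capitals that began at position -86 and reads the same on both strands. In Traf3 a single match ended at the last base before the start site. No match was found in these windows of Traf1, Traf2, Birc2, Cflar and Ripk1, which says only that the letters are not there.

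**Figure D1:**
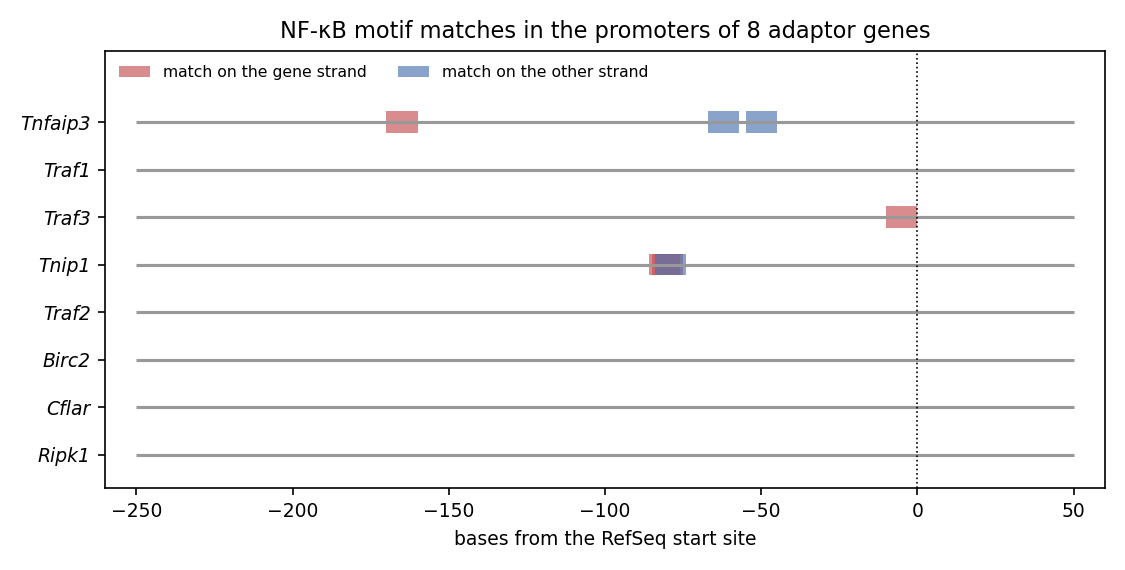
Matches to the NF-κB motif in the 8 promoters, by distance in bases from the RefSeq start site, with genes ordered by their fold change. Each box is 1 place of 10 bases, red where the strand of the gene matched and blue where only the other strand did. The place at -85 in Tnip1 matched on both strands and is drawn red. Boxes appear in Tnfaip3, Traf3 and Tnip1 only.

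Crushed and intact nerves were compared to see which of these genes differed in injured nerve. Of the 10 genes, 6 had an adjusted p under 0.05 in the fit over all 12393 genes tested, and all 6 were higher in crushed nerves. They were Birc3, Tnfaip3, Traf1, Traf3, Tnip1 and Traf2. Among all genes tested, 1.47% passed in that direction and 1.65% passed as lower. None of the 10 genes passed as lower with edgeR. At an unadjusted p under 0.05, edgeR gave 7 higher and 0 lower, and the share of all genes at that limit was not counted. DESeq2 gave 6 higher and 0 lower at an adjusted p under 0.05. That test passed 507 of all 12393 genes in either direction, against 387 with edgeR. At the limits of the study (an absolute log2 fold change above 1 and an unadjusted p under 0.001), Birc3 alone passed, while 0.218% of all genes passed as higher and 0.0646% as lower. In 7 of the 10 genes, the lowest crushed nerve exceeded the highest intact nerve, against 10.8% of all genes tested, and in none was the highest crushed nerve under the lowest intact nerve, against 12.2% of all genes. The median log2 fold change of the 10 genes was 0.32, and that of all genes tested was -0.0017. Since this contrast was known when the genes were chosen, nothing is read from these shares.

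Birc3 encodes cIAP2, the inducible member of the cIAP pair, and showed the largest difference of the 10 genes. It had 5.73, 5.27 and 4.97 normalized CPM in intact nerves 1, 2 and 3, against 17.4, 18.1 and 19.9 CPM in crushed nerves 1, 2 and 3. The highest intact nerve was far below the lowest crushed nerve. The means were 5.32 ± 0.386 and 18.5 ± 1.33 CPM (SD, n = 3 each). The log2 fold change was 1.79 (standard error 0.0981), which placed Birc3 at rank 8 of the 12393 genes by fold change.

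Birc2 encodes cIAP1, which is made more steadily in most cells, and lies beside Birc3 in the genome. In the coordinates of the deposited table (the submitters' processing notes name Rnor_6.0), Birc2 spans 6013207 to 6034142 and Birc3 6048969 to 6076598 on chromosome 8, 14827 bases apart. Birc2 had 50.9, 59.4 and 58.9 CPM in intact nerves and 62.8, 61.0 and 65.2 CPM in crushed nerves. The groups did not overlap, but crushed nerve 2 was close to intact nerve 2, and the log2 fold change of 0.16 (standard error 0.0651) did not pass. On the scale of FPKM (counts scaled to library size and gene length), Birc3 was 0.149, 0.117 and 0.112 of the level of Birc2 in the intact group, against 0.367, 0.392 and 0.405 in the crushed group. Birc3 thus made up 11.2% ± 1.58 of the summed FPKM of both genes in intact and 27.9% ± 1.004 in crushed nerves (SD, n = 3 each). Both are paralogs, and how reads that fit both were counted is not given in the sources used here.

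Tnfaip3 encodes A20, the deubiquitinase and ligase that shortens TNF signalling. It had 18.6, 18.8 and 17.1 CPM in intact nerves 1, 2 and 3 and 34.4, 35.5 and 36.8 CPM in crushed nerves 1, 2 and 3. Every crushed nerve lay far above every intact nerve, with means of 18.2 ± 0.9502 and 35.6 ± 1.23 CPM (SD, n = 3 each). The log2 fold change was 0.97 (standard error 0.0667), just below the study's limit of 1, and it was at most 0.9996 in any of 13 fits (7 of all 6 nerves with different models, scalings or filters, and 6 with 1 nerve left out). Tnip1 encodes ABIN1, which binds A20 and brings it to ubiquitin chains. Tnip1 had 116.4, 101.2 and 96.8 CPM in intact nerves, against 134.1, 131.7 and 138.2 CPM after crush. Intact nerve 1 stood above the other intact nerves but below all crushed nerves. The log2 fold change of Tnip1 was 0.36 (standard error 0.0634). Tnip1 no longer passed without intact nerve 2 (0.34), crushed nerve 1 (0.37) or crushed nerve 3 (0.34). Those fits passed 251, 179 and 211 genes in all, against 387 with all 6 nerves. The ratio of Tnfaip3 to Tnip1 on the FPKM scale was 0.233 ± 0.0179 in intact and 0.354 ± 0.00928 in crushed nerves (SD, n = 3 each).

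**Figure D2:**
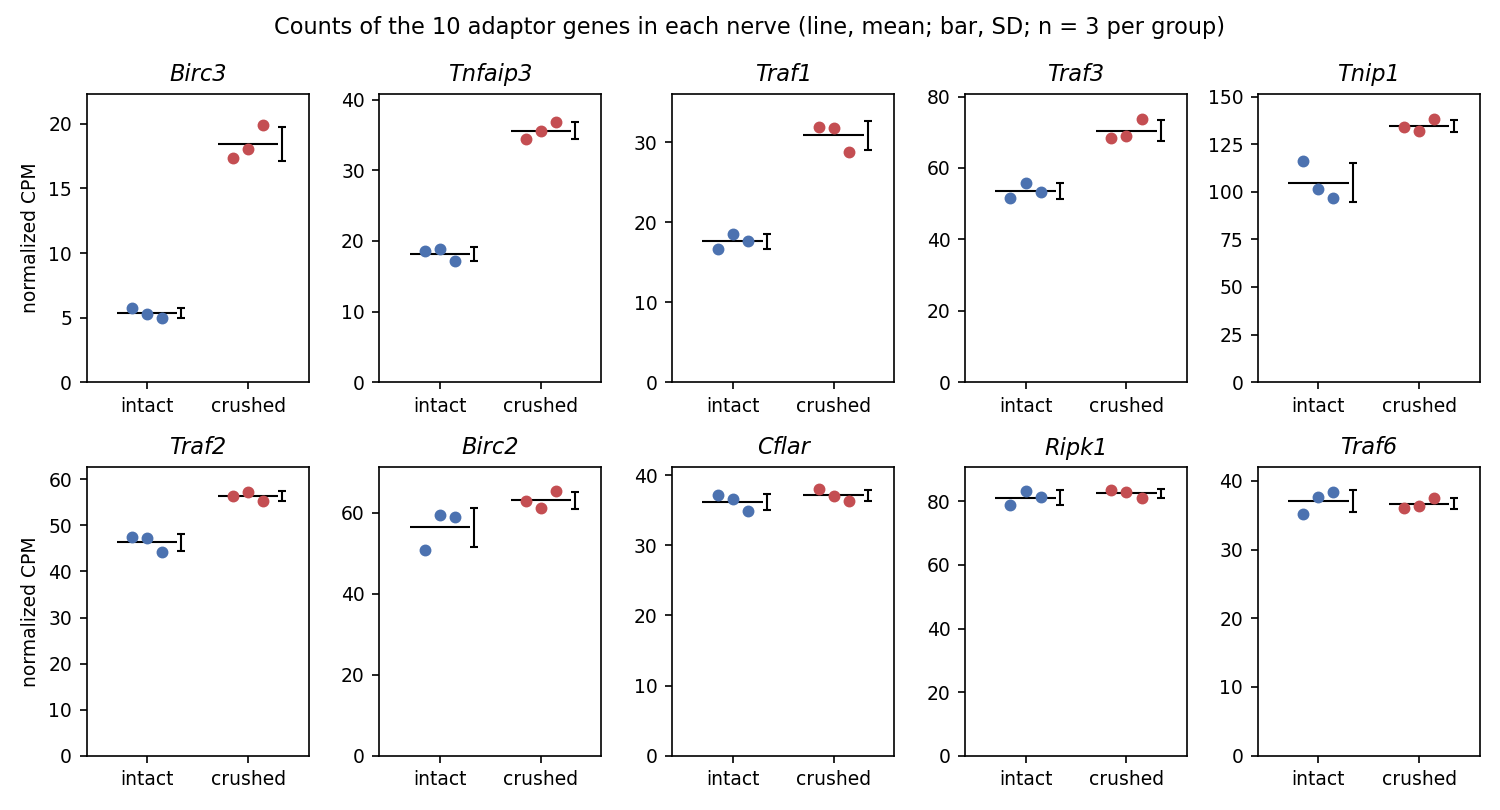
Normalized CPM of the 10 genes in each nerve, intact in blue and crushed in red, with the mean as a line and the SD as a bar beside it (n = 3 nerves per group), each panel on its own axis from 0. In Birc3, Tnfaip3, Traf1, Traf3, Tnip1, Traf2 and Birc2 all crushed nerves lie above all intact nerves, and in Cflar, Ripk1 and Traf6 the groups overlap.

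Among the TRAF adaptors, Traf1 differed most. TRAF1 is the member of the family without the RING finger that the others use as ubiquitin ligases, and it works in complexes with TRAF2. Traf1 had 16.7, 18.5 and 17.6 CPM in intact nerves 1, 2 and 3 and 32.0, 31.8 and 28.8 CPM in crushed nerves. Crushed nerve 3 was the lowest of its group and still well above the intact nerves, and the log2 fold change was 0.81 (standard error 0.0726). Traf2, the adaptor that binds the receptor complex and holds the cIAPs, had 47.5, 47.3 and 44.2 CPM in intact and 56.4, 57.4 and 55.2 CPM in crushed nerves. The groups lay apart by less than in Traf1, and the log2 fold change was 0.28 (standard error 0.0523). Traf2 no longer passed without intact nerve 3 (0.25), crushed nerve 1 (0.28) or crushed nerve 2 (0.27). Those fits passed 303, 179 and 183 genes in all, against 387 with all 6 nerves.

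Traf3, which with TRAF2 and the cIAPs keeps the kinase NIK of the alternative NF-κB pathway at a low level, had 51.5, 55.8 and 53.2 CPM in intact nerves and 68.5, 69.0 and 73.8 CPM in crushed nerves. All crushed nerves were higher, and the log2 difference was 0.40 (standard error 0.0535). Traf6, the ligase used by interleukin-1 and Toll-like receptors and not by TNF receptor 1, had 35.2, 37.7 and 38.3 CPM in intact and 36.0, 36.4 and 37.5 CPM in crushed nerves. The crushed nerves fell within the range of the intact nerves, and the log2 difference was -0.02 (standard error 0.0577), which changed sign in 3 fits. As a share of the summed FPKM of these 4 genes, Traf1 was 17.2% ± 0.523 in intact and 23.8% ± 1.16 in crushed nerves, while Traf6 was 25.5% ± 1.04 and 19.9% ± 0.609 (SD, n = 3 each). Traf2 held the largest share in both, 41.7% ± 1.63 and 40.1% ± 0.336.

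Ripk1 and Cflar stand at the branch between NF-κB and cell death, RIPK1 as the kinase that the ubiquitin chains are built on and cFLIP as the brake on caspase-8. Ripk1 had 78.9, 83.3 and 81.5 CPM in intact nerves and 83.5, 83.1 and 80.9 CPM in crushed nerves. Cflar had 37.1, 36.5 and 34.9 CPM in intact and 37.9, 37.0 and 36.3 CPM in crushed nerves. In both genes the groups overlapped, with log2 fold changes of 0.02 (standard error 0.0445) and 0.04 (standard error 0.0557), and neither passed. Across all 13 fits Ripk1 was between 0.01 and 0.04 and Cflar between 0.01 and 0.06 on the log2 scale.

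**Figure D3:**
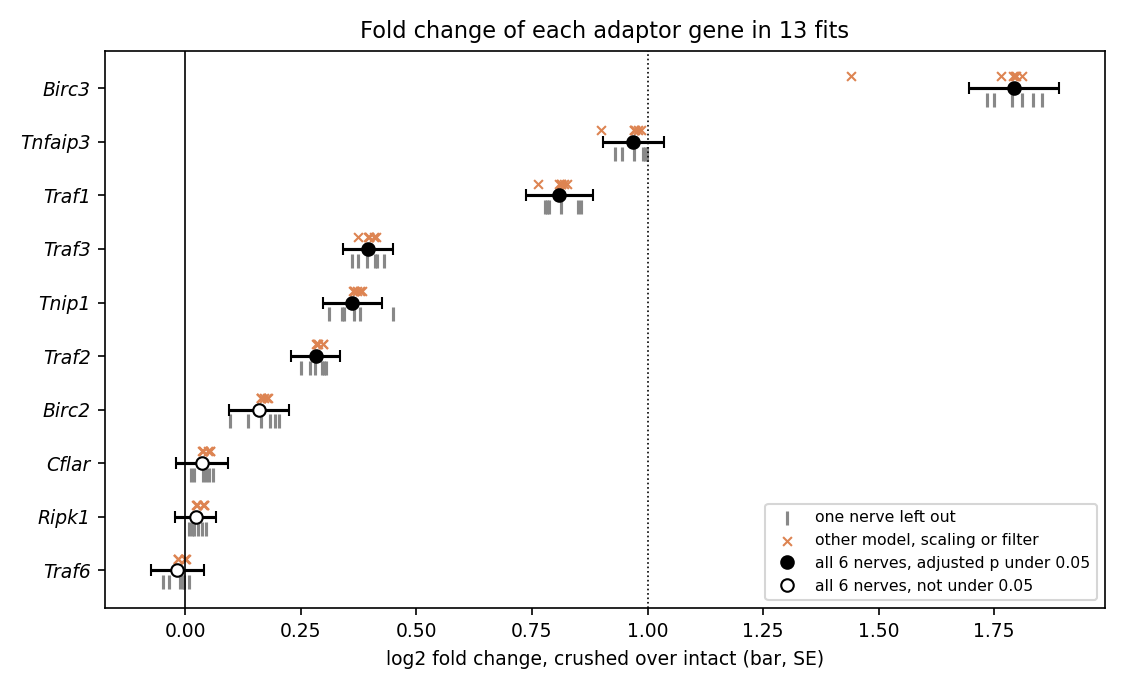
The log2 fold change of each gene (crushed over intact) with its standard error over all 6 nerves, filled where the adjusted p was under 0.05, beside the values with 1 nerve left out (grey ticks) and with another model, scaling or filter (orange crosses). The dotted line marks the study's limit of 1, which Birc3 exceeds in every fit and Tnfaip3 in none.

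The levels of the genes were compared per length, with the FPKM of the authors. In intact nerves Tnip1 was highest, at 29.5 to 35.2 FPKM, followed by Traf2 at 21.3 to 22.7. Ripk1, Birc2 and Cflar came next, between 15.2 and 18.3 FPKM, and Ripk1 overlapped Birc2 as Birc2 overlapped Cflar. Below them the order was Traf6, Traf1, Traf3, Tnfaip3 and Birc3. The lowest Traf1 and the highest Traf3 value were both 8.66 FPKM, and the other neighbours did not overlap, down to 2.01 to 2.31 FPKM for Birc3. In crushed nerves Tnip1 (40.4 to 42.5) and Traf2 (26.8 to 27.8) stayed first and Birc3 (7.12 to 8.17) last. Traf1, at 15.2 to 16.9 FPKM, then overlapped Cflar, at 16.0 to 16.7, and both Traf1 and Tnfaip3, at 14.2 to 15.2, stood above Traf6, at 13.4 to 13.9, which they were below in intact nerves. The 4 genes with the lowest intact level, Birc3, Tnfaip3, Traf3 and Traf1, were also the 4 with the largest log2 fold change over all 6 nerves. Without intact nerve 1, however, Tnip1 (0.45), the gene with the highest level, was above Traf3 (0.37). The intact level is the denominator of the fold change, so the order by level and the order by fold change are linked by construction. Scaling to length matters as well, since by mean CPM in intact nerves Traf3 (53.5) was above Cflar (36.2), Traf6 (37.1) and Traf2 (46.3). By mean FPKM over the 6 nerves the genes ran from the 27.1 percentile of all genes tested (Birc3) to the 78.5 percentile (Tnip1).

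**Figure D4:**
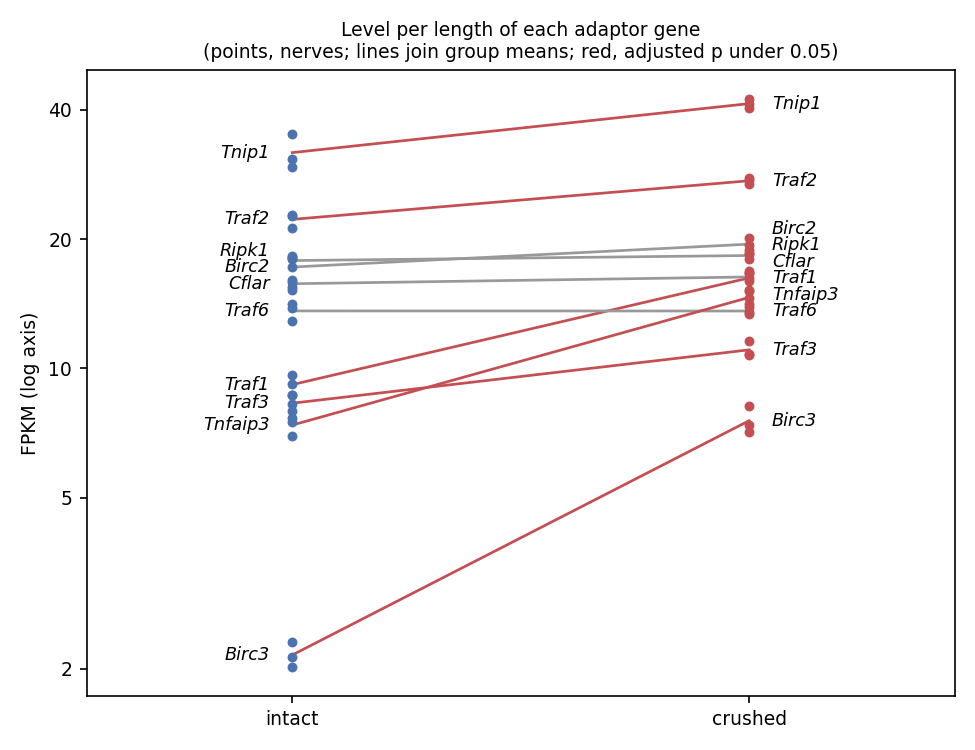
FPKM of each gene in the 3 intact and the 3 crushed nerves on a log axis, with lines between the group means, red where the adjusted p was under 0.05. Birc3 climbs from about 2.15 to 7.56 FPKM but stays lowest, and Traf1 and Tnfaip3 cross Traf6, which is at 13.6 in both groups.

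The other genes of the pathway were taken from a list of 61 genes in 5 roles, of which 59 were in the table under those names and 53 were tested. Of the 53, 10 had an adjusted p under 0.05 as higher in crushed nerves and none as lower, with a median log2 fold change of 0.08. Among all genes tested, 1.47% passed as higher and 1.65% as lower, with a median of -0.0017. At an unadjusted p under 0.05, edgeR gave 15 higher and 4 lower. The share of all genes at that limit was not counted, so nothing is read from these 2 counts. With DESeq2, 11 passed as higher and 1 as lower, Map3k14, which encodes NIK. DESeq2 passed 507 of all 12393 genes in either direction, against 387 with edgeR, so the shares above are not those of DESeq2. Map3k14 was named after its value was seen, and its log2 fold change with edgeR was -0.26 (adjusted p = 0.0704). Every adjusted p printed here is edgeR's unless another test is named, after the method of Benjamini and Hochberg. At the study's limits 5 of the 53 passed as higher and 0 as lower, against 0.218% and 0.0646% of all genes tested. The genes were listed with earlier results of these data known, so nothing is read from these shares.

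Of the 7 receptors tested, 2 passed, both by small amounts. Tnfrsf1b, the TNF receptor that binds TRAF2 directly, was higher by 0.35 on the log2 scale (standard error 0.0584, adjusted p = 0.00872), and Il1r1, the interleukin-1 receptor, by 0.22 (standard error 0.0492, adjusted p = 0.0374). Il1r1 passed in 5 of the 13 fits, and Tnfrsf1b in 11, without crushed nerve 1 (0.33) and crushed nerve 2 (0.32) excepted. The fits without crushed nerve 1 and crushed nerve 2 passed 179 and 183 genes in all, against 387 with all 6 nerves. Tnfrsf11a, Cd40, Tnfrsf9, Tnfrsf10b and Ngfr had too few counts to be tested.

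Of the 16 other adaptors and death effectors tested, 1 passed. Ripk2, the kinase relative that serves the NOD receptors, was higher by 0.39 (standard error 0.0652, adjusted p = 0.00831), and no longer passed without crushed nerve 2 (0.37). That fit passed 183 genes in all, against 387 with all 6 nerves. The remaining TRAFs of this list stayed short of the threshold. The log2 difference of Traf4 was 0.16 (standard error 0.0822, adjusted p = 0.386), but 0.27 without intact nerve 1, where it passed. Traf5, which had 121 to 139 counts in intact and 106 to 111 in crushed nerves, differed by -0.31 on the log2 scale (standard error 0.129, adjusted p = 0.269). Tradd, the adaptor that links TNF receptor 1 to RIPK1 and TRAF2, differed by 0.08 on the log2 scale (adjusted p = 0.662), and Xiap, the relative of the cIAPs that blocks caspases, by -0.02 (adjusted p = 0.893).

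Of the 13 genes of the ubiquitin machinery tested, Tnip3 alone passed. Tnip3 encodes ABIN3, a relative of the product of Tnip1, and was covered by 1, 0 and 2 counts in the intact group, against 19, 25 and 26 in the crushed group. Tnip3 no longer passed with limma on log2(FPKM + 1) (adjusted p = 0.0596), and its fitted log2 fold change was 3.78 without intact nerve 2 and 5.20 without intact nerve 3. Its intact counts were too few for an exact fold, and the ratio of the summed counts, 70 against 3, was 22.4 after scaling (exact 95% interval 7.37 to 111.4, for counting error only, adjusted p = 0.00139). The rest of this group had log2 fold changes between -0.10 and 0.21, the highest in Cyld, another deubiquitinase of this pathway, with an adjusted p of 0.154. Of the 7 kinases tested none passed in either direction with edgeR, and their log2 fold changes lay between -0.26 and 0.09.

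Of the 10 NF-κB subunits and inhibitors tested, 6 passed as higher, with a median log2 fold change of 0.64 over the 10. Those with the smallest p were Nfkbia, which encodes the inhibitor IκBα (log2 fold change 1.65, adjusted p = 1.4e-07), the subunit genes Relb (1.85, adjusted p = 2.89e-06) and Nfkb2 (0.75, adjusted p = 2.89e-06), and Nfkbie, which encodes IκBε (1.01, adjusted p = 9.4e-05). The remaining ones, named after their values were seen, were Nfkb1 (0.33) and Bcl3 (1.16). Birc3 was thus near Relb and Nfkbia in size, Tnfaip3 near Nfkbie and Traf1 near Nfkb2, though differences between these genes were not tested. An NF-κB motif match was present in the promoters of 7 of the 9 NF-κB subunit and inhibitor genes that had a promoter in the table. It was present in 1 of 7 receptor, 1 of 11 adaptor and death effector, 1 of 5 kinase and 0 of 10 ubiquitin machinery promoters, that of Tnip3 included. In the whole fit, 22.3% of the promoters of genes that passed as higher held a match (29 of 130 with a promoter), against 4.29% for genes that passed as lower (6 of 140) and 5.20% for all genes tested (440 of 8459). The 29 include genes of the lists above, such as Tnfaip3, Tnip1, Traf3, Nfkbia and Nfkb2, which were chosen with these results known. These shares are a description and were not tested.

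**Figure D5:**
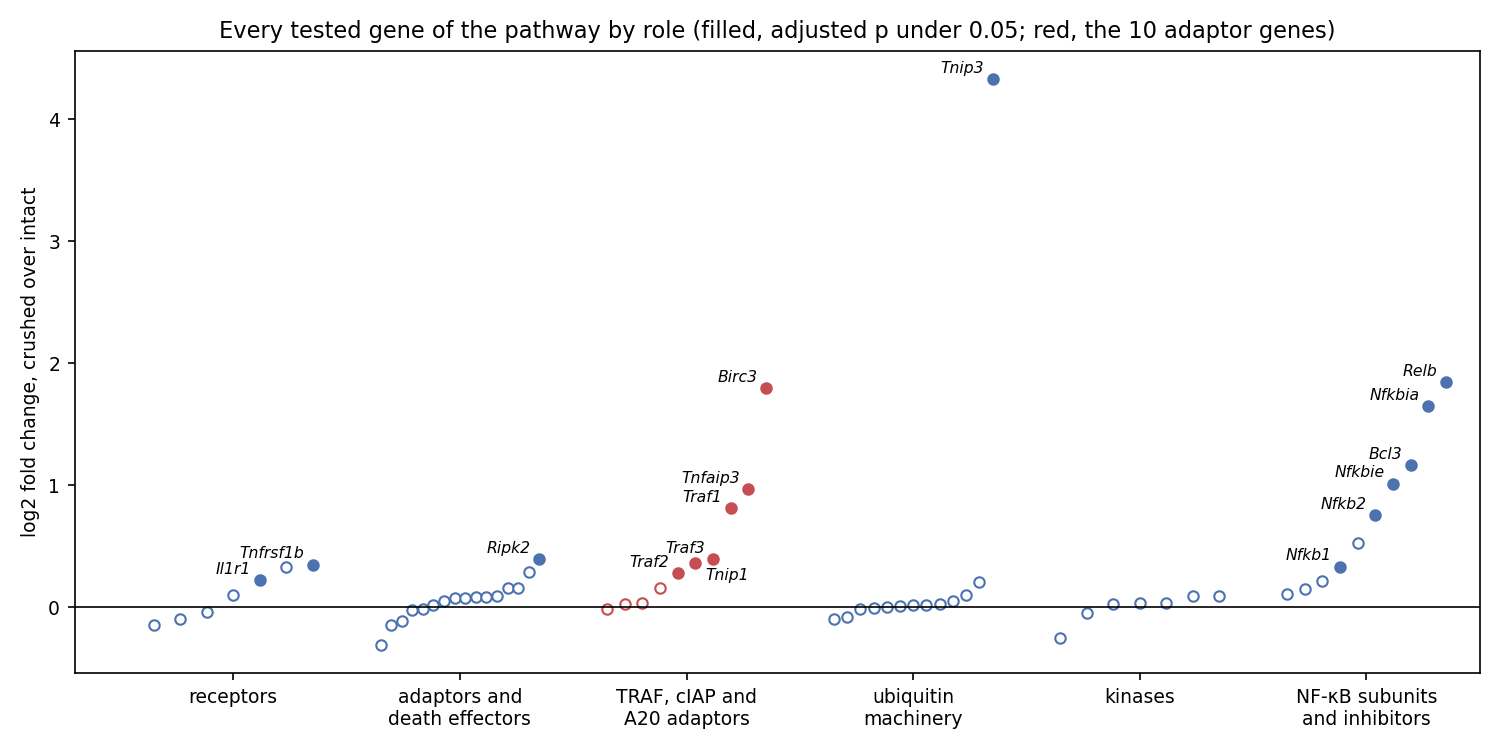
The log2 fold change (crushed over intact) of each tested gene by role, with the 10 TRAF, cIAP and A20 genes in red and the others in blue, filled where the adjusted p was under 0.05. The filled points are all above 0, and the NF-κB subunits and inhibitors hold 6 of the 10 filled blue points. The point of Tnip3 rests on 3 counts in the intact nerves, and its height depends on the fit.

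The pattern over the 6 nerves was compared with that of other genes by Pearson's r of log2(normalized CPM + 0.5). With 3 nerves in each group, any gene whose groups lie well apart has a high r, so these values are a description. The genes most like Tnfaip3 were Tgfa (r = 0.9997), Cxcl16 (r = 0.9981) and Cp (r = 0.9980). Those most like Birc3 were Il6st (r = 0.9984), Nfkbia (r = 0.9982) and SNORD14 (r = 0.9969), and those most like Traf1 were Atp6v0a2 (r = 0.9970), Rab32 (r = 0.9966) and Nfkbie (r = 0.9955). The likeness is in shape and not in size, since Tgfa had a log2 fold change of 0.31 and Il6st of 0.37, against 0.97 for Tnfaip3 and 1.79 for Birc3.

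The neighbours of the 10 genes on their chromosomes were looked at within 100000 bases on either side. No gene of the table overlapped any of the 10. Of the tested neighbours outside the 10 genes, Anxa6, 24111 bases from Tnip1, was the one with an adjusted p under 0.05, and it was lower in crushed nerves (log2 fold change -0.44, standard error 0.0437, adjusted p = 0.000246). Among all genes tested, 1.47% passed as higher and 1.65% as lower, and nothing is read from this single gene. Beside Birc2 and Birc3, Tmem123 (-0.02) and Yap1 (-0.02) did not pass, nor did Phf19 (0.03) and Psmd5 (0.05) beside Traf1 or Cdc42bpb (0.13) beside Traf3. Casp8, which lies 26891 bases from Cflar and encodes the caspase that cFLIP holds back, differed by 0.08 on the log2 scale (adjusted p = 0.504).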

How the data were processed

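RNA-seq libraries were made from 3 crushed and 3 intact sciatic nerves. The deposited table holds raw counts per Ensembl gene and the FPKM values that the authors made from them. The submitters' processing notes name HISAT2, StringTie 1.3.0 and the build Rnor_6.0, with no roles. The methods name TRIzol, removal of rRNA and then RNase R, and the labels name a column kit. How these steps bear on the levels of the genes was not tested. The 12 columns of values were matched by sample title, and 0 others were present. Counts were fitted in edgeR 4.0.16 (R 4.3.3) by its quasi-likelihood F test, after TMM scaling and filterByExpr, without a replicate block, and p-values were adjusted over all genes by the Benjamini-Hochberg method. Deposited FPKM served only for levels between genes and for limma 3.58.1 with a pseudocount of 0.1 or 1. Alternatives were DESeq2 (version 1.42.0), library totals without TMM, no filter, the replicate block and each nerve left out, 12 in all. The fits were tested on simulated data. Standard errors come from the test statistic. Counts of each replicate pair differed beyond sampling noise (chi-square over its degrees of freedom 3.27 to 11.8), so no pair was taken as repeat deposits of a single library, which does not show that the nerves are independent. The intact nerves were contralateral, so crushed and intact nerves came from the same rats, but no source says which belong together or whether the 3 nerves of a group came from separate rats. The main test treats the 6 nerves as independent, and p-values measure only the spread between these samples. The members and all lists were chosen with earlier results of these data known. Named were all 10 members, up to 4 genes per role with the smallest p among those passing, Traf4, Traf5, Tradd and Xiap, and for Tnfaip3, Birc3 and Traf1 the 3 genes of most similar pattern. RefSeq promoters (GRCr8) were matched by symbol, and coordinates of both builds were kept apart. Protein sequences were not used here, and 1 marker gene is not reported here.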

Additional observations from a re-analysis of the deposited data

How the results depend on the processing

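The count of the 10 genes with an adjusted p under 0.05 was 6 higher and 0 lower in every fit of all 6 nerves and 4 to 6 higher with each nerve left out, where Traf2 and Tnip1 were the ones lost. Over all genes tested, 387 passed in the main fit and 179 to 392 with each nerve left out. Birc3, Tnfaip3, Traf1 and Traf3 passed in all 13 fits. Traf6 changed sign, to 0.0003 and 0.0002 with limma on log2(FPKM + 0.1) and log2(FPKM + 1) and to 0.0086 without intact nerve 3, with a range of -0.0481 to 0.0086 with each nerve left out. Xiap did so without intact nerve 3 (0.0463) and crushed nerve 2 (0.0040), with a range of -0.0823 to 0.0463. Neither passed in any fit. Of the other pathway genes, 1 passed as lower with DESeq2, a test that passed 507 of all genes against 387 with edgeR. At the study's limits 2 were higher with limma on log2(FPKM + 1), which shrinks low genes, and 3 to 5 with each nerve left out. The lowest count came without intact nerve 3, where Nfkbie had a log2 fold change of 0.9865, just under the limit of 1. Which other genes fell short in that fit was not looked up. With the replicate block, 6 of the 10 genes passed, and Il1r1 alone of the named genes was lost (log2 fold change 0.22, adjusted p = 0.0817). Same-numbered nerves did not deviate together (correlations of -0.0148, 0.00586 and 0.0756), and 2 of the 6 nerves correlated best with their own number. At these depths counts of a few reads, as in Tnip3, limit the precision of a fold. Another way of counting reads shared between paralogs was not run, since it needs the reads.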
